A study of Mus musculus with 8 samples.

Results

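The genes of glycolysis and hypoxia-linked metabolism were compared between retinal pigment epithelium (RPE) eyecups of mice with and without the ciliary gene Bbs8. The set was a list of 32 symbols chosen by function, out of 31053 gene rows in each library: 3 transporters of glucose and lactate, 10 genes of upper glycolysis, 6 of lower glycolysis, 4 pyruvate and lactate enzymes, 4 oxygen sensors and HIF alpha subunits, and 5 targets that low oxygen induces. All 32 symbols were found among the gene rows. A total of 4 wild-type C57/Bl6 libraries (Bbs8+/+) and 4 libraries from knockout littermates (Bbs8-/-) of the same strain had been made at postnatal day 11 (P11). The study's methods count each animal as a biological replicate. No treatment was given. The study's methods describe removal of the lens, cornea, optic nerve and neural retina before RNA extraction, so the eyecup held RPE together with the tissue behind it. Each library was read by QuantSeq 3′ mRNA sequencing, in which a read comes from the 3′ end of a polyadenylated transcript, so that levels were not divided by gene length. Levels are given as TMM-normalized CPM, the library's gene counts scaled to a common total, and as mean ± SD with n = 4 per genotype.

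Glycolysis splits glucose into pyruvate in the cytosol and yields ATP without oxygen, and lactate dehydrogenase then turns pyruvate into lactate. The HIF transcription factors, whose alpha subunits are marked for destruction by oxygen-dependent prolyl hydroxylases, raise glucose uptake and glycolysis when oxygen is scarce. The RPE is known for passing glucose from the choroidal blood to the photoreceptors while burning little of it, and for taking up the lactate that photoreceptors release.

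The targeted gene, Ttc8 (the annotation's symbol for Bbs8), was at 14.7, 19.7, 18.2 and 21.6 CPM in the Bbs8+/+ libraries and at 9.70, 3.66, 2.29 and 4.20 CPM in the Bbs8-/- libraries. Its log2 fold change was -1.95 (SE 0.317, edgeR FDR 2.74e-06), without overlap between the genotypes. Gene counts totalled 2159295 to 2884983 per Bbs8+/+ library and 1636725 to 2179761 per Bbs8-/- library, and 3 counts, taken as the floor, stood for 1.04 to 1.83 CPM. The 8 RPE markers summed to 16547 to 17564 CPM in Bbs8+/+ and 17753 to 18058 CPM in Bbs8-/-, while 0 of 8 passed FDR 0.05 in either direction. Those sums did not overlap because of Ttr, the most abundant marker, and without it the other 7 summed to 6130 to 6316 and 6108 to 6321 CPM, which overlapped. Every library held both Xist, which marks female cells, and Y-linked transcripts, which come from male cells. A library thus did not read as RNA of a single mouse. The number of animals per library is not given in the sources used here, so n = 4 counts libraries. Xist, from the inactive X chromosome, was at 641 to 746 CPM in Bbs8+/+ and 570.0 to 625 CPM in Bbs8-/-, and 4 Y-linked genes summed to 59.0 to 64.9 and 108 to 120 CPM. Neither measure overlapped between the genotypes, and the part of the mix of sexes in the results was not tested.

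Of the 32 genes, 29 reached 1 CPM in at least 4 libraries and were tested. Pkm rose, Epas1 fell, and 27 did not pass FDR 0.05 in the two-sided quasi-likelihood test of edgeR. Among all 13813 tested genes 1.10% rose and 1.14% fell. The median log2 fold change of the 29 genes was -0.10, beside -0.0041 for all tested genes, and single values ran from -0.43 to 0.67. The median was -0.044 without Bbs8+/+ replicate 2 and -0.060 without Bbs8-/- replicate 1. An absolute log2 fold change under 0.5 was found for 28 of the 29. The fold change was below 0 for 18 of the 29 genes, 62.1% beside 50.5% of all tested genes. An unadjusted p under 0.05 was reached by 7 of them, 24.1% beside 13.0% of all tested genes. No Bbs8-/- library overlapped the Bbs8+/+ libraries in Pkm and Eno1, which were higher, and in Epas1, which was lower. Among all tested genes 3.62% were higher and 3.76% lower without overlap.

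**Figure D1:**
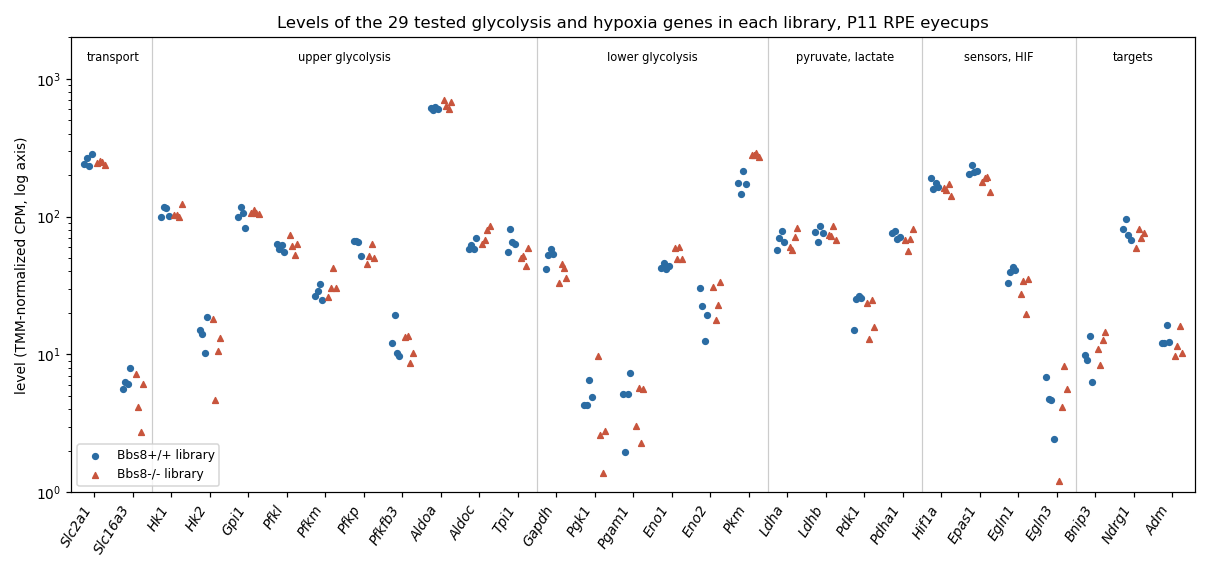
Level of each of the 29 tested genes in every library (TMM-normalized CPM, log axis), grouped by role, with circles for Bbs8+/+ and triangles for Bbs8-/-. The triangles of Pkm (270.8 to 288.4 CPM) and of Eno1 (49.0 to 60.5 CPM) lie above their circles (145.1 to 214.3 and 41.6 to 46.4 CPM), and those of Epas1 lie below. Aldoa is the most abundant gene and Pgk1, Pgam1 and Egln3 lie near the floor.

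The largest difference was in Pkm (ENSMUSG00000032294, chr9:59656368-59679375 in mm10), which encodes the muscle-type pyruvate kinase, the enzyme of the last step of glycolysis. Pkm was at 174.1, 145.1, 214.3 and 171.7 CPM in the Bbs8+/+ libraries and at 280.8, 280.4, 288.4 and 270.8 CPM in the Bbs8-/- libraries. All 4 knockout libraries lay above all 4 controls, and the control libraries were the more spread. The mean went from 176 ± 28.6 to 280.1 ± 7.22 CPM, a 1.59-fold rise (log2 fold change 0.67, SE 0.0782, edgeR FDR 1.32e-11). Pkm passed the threshold in all 14 alternative analyses of single genes, with log2 fold changes from 0.59 to 0.78. Its counted 3′ end is common to the splice forms of the gene, so these counts did not separate them. The last 500 bases of the transcript matched no other gene over 50 bases at 95% identity, and Pkm overlaps no other counted gene.

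Pkm begins at more than 1 start in the RefSeq annotation, and its windows are shown because this gene carried the clearest difference. Each window runs from 250 bases before to 50 bases after a start, on the plus strand of GRCm38.p6 (mm10), at chr9:59656326-59656625 and chr9:59656977-59657276. Capitals mark the letters ACGTG or GCGTG on either strand (CACGT and CACGC when read on the opposite strand), the core to which HIF is known to bind. ACGTG also lies inside the E-box CACGTG.
Pkm window 1: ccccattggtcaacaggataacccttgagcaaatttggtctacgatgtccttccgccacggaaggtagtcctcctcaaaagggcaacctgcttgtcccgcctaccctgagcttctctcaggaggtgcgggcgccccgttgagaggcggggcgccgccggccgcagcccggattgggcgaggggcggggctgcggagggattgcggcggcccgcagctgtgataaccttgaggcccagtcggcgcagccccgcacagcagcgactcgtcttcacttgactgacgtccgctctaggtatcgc
Pkm window 2: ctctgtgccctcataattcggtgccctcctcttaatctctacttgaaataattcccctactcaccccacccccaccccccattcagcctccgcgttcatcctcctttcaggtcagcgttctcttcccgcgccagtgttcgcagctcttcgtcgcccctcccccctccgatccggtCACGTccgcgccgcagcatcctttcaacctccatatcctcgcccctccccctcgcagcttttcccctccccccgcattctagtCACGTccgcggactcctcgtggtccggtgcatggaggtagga
Window 1 held 0 such stretches and window 2 held 2. Of 32851 promoter windows of this length in the RefSeq table, 43.8% held either core, 19.6% ACGTG and 32.4% GCGTG. Of the 32 genes 29 had an entry, with 42 windows between them, of which 34 (81.0%) held a core. At least 1 core was found in 26 of the 29 genes (89.7%), beside 46.7% of all 27025 genes in the table. The genes were listed for their known place in glycolysis and the hypoxia response, and a match of letters is not a bound site. Epas1, Slc2a3 and Ndrg1 had no entry.

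**Figure D2:**
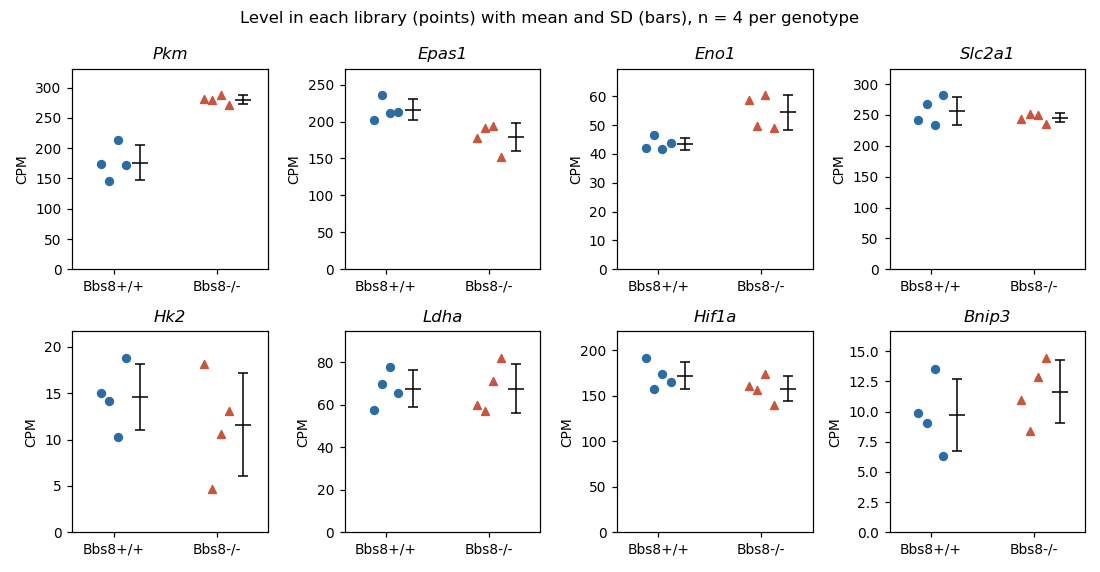
Level in each library for 8 genes (CPM, axes from 0), with points for libraries and bars for the mean and SD of 4 libraries per genotype. Pkm and Eno1 are higher and Epas1 is lower in Bbs8-/- without overlap, whereas Slc2a1, Hk2, Ldha, Hif1a and Bnip3 overlap between the genotypes.

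Transport of glucose and lactate showed no gene past the threshold. Slc2a1, the basal glucose transporter of RPE and blood-tissue barriers, was at 241.3, 268.1, 234.4 and 282.7 CPM in Bbs8+/+ and 243.8, 252.2, 249.5 and 235.8 CPM in Bbs8-/-. The knockout values lay inside the range of the controls. The log2 fold change was -0.07 (SE 0.0729, edgeR FDR 0.775), with a 95% interval from -0.21 to 0.07. It ran from -0.11 without Bbs8+/+ replicate 3 to -0.017 without Bbs8+/+ replicate 4. Slc16a3, a lactate exporter of glycolytic cells, was at 5.60 to 8.03 CPM in Bbs8+/+ and 2.75 to 7.28 CPM in Bbs8-/-. Slc2a3, the neuronal glucose transporter, was below the filter, with 0 to 4 counts in a Bbs8+/+ library and 0 to 3 in a Bbs8-/- library. Slc2a1 thus took 99.9% ± 0.246 of the counts of this transporter pair in Bbs8+/+ and 99.7% ± 0.270 in Bbs8-/-.

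In upper glycolysis, from hexokinase to triose phosphate, 0 of 10 genes passed FDR 0.05, and their median log2 fold change was 0.02. In DESeq2, as in edgeR, none of these 10 passed, and 2 of the 10 had an unadjusted p under 0.05 in edgeR. Hk2, the insulin- and hypoxia-responsive hexokinase, was at 15.1, 14.2, 10.3 and 18.9 CPM in Bbs8+/+ and 18.2, 4.70, 10.6 and 13.1 CPM in Bbs8-/-. One knockout library, replicate 2, was low and another was close to the highest control. The log2 fold change of Hk2 was -0.35 (SE 0.280, edgeR FDR 0.651), and it ran from -0.62 without Bbs8-/- replicate 1 to -0.098 without Bbs8-/- replicate 2. Hk1, the constitutive hexokinase, was far more abundant, at 108 ± 9.72 CPM in Bbs8+/+ and 107 ± 10.9 CPM in Bbs8-/-.

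Gpi1, which interconverts glucose and fructose phosphates, was at 101 ± 14.7 and 107 ± 3.36 CPM. The 3 phosphofructokinase genes, whose products catalyse the committed step, had log2 fold changes of 0.06 (Pfkl, the liver form), 0.22 (Pfkm, the muscle form) and -0.24 (Pfkp, the platelet form). None of these passed (edgeR FDR 0.905, 0.676 and 0.471), and the value of Pfkm was 0.051 without Bbs8-/- replicate 3. Pfkp went from 62.6 ± 7.29 to 52.6 ± 7.58 CPM. Pfkfb3, which makes the activator of phosphofructokinase, lay between 8.71 and 19.3 CPM across all libraries.

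Aldoa, the general aldolase, was the most abundant of the 32 genes, at 610.2 ± 14.2 CPM in Bbs8+/+ and 653 ± 42.5 CPM in Bbs8-/- (log2 fold change 0.10, SE 0.0557, edgeR FDR 0.485). Aldoc, the brain-type aldolase, was at 57.7 to 69.8 CPM and 63.1 to 85.5 CPM, with a log2 fold change of 0.26 (unadjusted p = 0.0379, edgeR FDR 0.350). Tpi1, which interconverts the triose phosphates, was at 55.6 to 81.8 CPM in Bbs8+/+ and 44.0 to 59.3 CPM in Bbs8-/-. Its log2 fold change was -0.37 (SE 0.135, unadjusted p = 0.00627, edgeR FDR 0.149), and the genotypes overlapped.

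Lower glycolysis held the gene with the largest difference of the set, Pkm, and otherwise no gene past the threshold. Eno1, the general enolase, was at 42.2, 46.4, 41.6 and 43.6 CPM in Bbs8+/+ and 58.8, 49.6, 60.5 and 49.0 CPM in Bbs8-/-. Its 4 knockout values lay above all control values, with replicates 1 and 3 the highest. The log2 fold change of 0.32 (SE 0.143, edgeR FDR 0.294) did not pass. Eno1 shares 48.4% of the 100-base windows of its last 500 bases with Eno1b, a near-identical copy, so reads from there could not be counted as unique. Eno2, the neuronal enolase, was at 12.6 to 30.6 CPM and 17.8 to 33.6 CPM.

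Gapdh, the glyceraldehyde phosphate dehydrogenase often used as a reference gene, was at 41.8 to 57.9 CPM in Bbs8+/+ and 32.8 to 45.4 CPM in Bbs8-/-. Its log2 fold change was -0.38 (SE 0.150, unadjusted p = 0.0117, edgeR FDR 0.205). The end of the Gapdh transcript matched 127 other annotated genes over at least 50 bases at 95% identity, and reads with several alignments were not in these counts, so its low level is that of uniquely aligned reads. Pgk1, the phosphoglycerate kinase, matched 5 other genes and was at 5.01 ± 1.05 and 4.12 ± 3.77 CPM, with 3 to 16 counts per Bbs8-/- library. Bbs8-/- replicate 1, at 9.70 CPM, lay above every other library of Pgk1, and the log2 fold change of -0.34 was -1.13 without it and -0.034 without Bbs8-/- replicate 3. Pgam1, the phosphoglycerate mutase of most tissues, was at 4.90 ± 2.21 and 4.17 ± 1.76 CPM. The 95% intervals of their log2 fold changes, -1.31 to 0.63 and -1.17 to 0.70, were wide at this depth.

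The enzymes that take pyruvate onward showed no gene past the threshold. Ldha, the lactate dehydrogenase subunit that favours lactate formation, was at 57.3, 69.6, 78.0 and 65.6 CPM in Bbs8+/+ and 60.0, 56.9, 71.1 and 82.2 CPM in Bbs8-/-. The genotypes covered nearly the same range. The log2 fold change of Ldha was 0.01 (SE 0.126, edgeR FDR 0.989, 95% interval -0.24 to 0.26), and its sign turned with small changes of the analysis. Ldhb, the subunit that favours lactate use, was at 76.2 ± 8.14 and 74.9 ± 7.08 CPM. Pdk1, the kinase that shuts off pyruvate dehydrogenase, was at 15.1 to 26.6 CPM and 13.1 to 24.8 CPM. Pdha1, the catalytic subunit of that complex, was at 73.6 ± 4.40 and 68.7 ± 10.4 CPM. Pdha1 and Pgk1 lie on the X chromosome, where the levels of Xist given above also differed between the genotypes, and the part of that difference in their values was not tested.

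The first window of Ldha is shown because it held the most core stretches of the sequences printed here, 5. It lies at chr7:46845554-46845853 on the plus strand of GRCm38.p6, with capitals as before.
Ldha window 1: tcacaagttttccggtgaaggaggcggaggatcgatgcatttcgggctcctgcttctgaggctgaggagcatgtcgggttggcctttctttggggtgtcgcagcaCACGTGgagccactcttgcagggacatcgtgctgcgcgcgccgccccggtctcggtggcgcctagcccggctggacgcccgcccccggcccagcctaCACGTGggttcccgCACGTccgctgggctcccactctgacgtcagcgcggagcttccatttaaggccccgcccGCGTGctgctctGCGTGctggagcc
Whether such stretches bear on the level of Ldha or of Pkm was not tested.

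**Figure D3:**
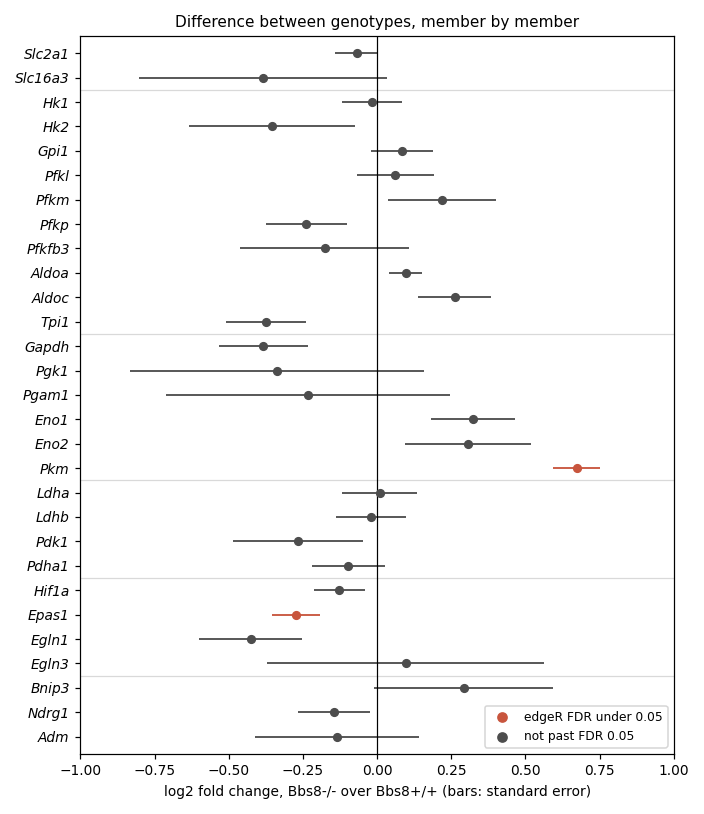
Log2 fold change of Bbs8-/- over Bbs8+/+ for each of the 29 tested genes, with bars of 1 standard error. Pkm (0.67) and Epas1 (-0.27), in red, passed FDR 0.05 in edgeR, and the other genes lie between -0.43 and 0.32.

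Among the oxygen sensors and HIF alpha subunits, Epas1 (ENSMUSG00000024140, chr17:86753700-86833410 in mm10) was called. Epas1 encodes the alpha subunit of HIF-2, abundant in endothelium. It was at 202.1, 236.3, 212.0 and 213.6 CPM in Bbs8+/+ and at 178.3, 191.6, 194.0 and 151.8 CPM in Bbs8-/-. All knockout libraries lay below all controls, with replicate 4 the lowest. The mean fell from 216 ± 14.5 to 179 ± 19.4 CPM (log2 fold change -0.27, SE 0.0806, edgeR FDR 0.0441). The call was lost in 6 of 14 alternatives: with DESeq2 (FDR 0.100), with the replicate block (0.0606), and without Bbs8+/+ replicate 2 (0.246), Bbs8+/+ replicate 4 (0.0712), Bbs8-/- replicate 1 (0.116) or Bbs8-/- replicate 4 (0.316). Its log2 fold change stayed below 0 in all 14.

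Hif1a, which encodes the alpha subunit of HIF-1, was at 191.7, 157.3, 174.2 and 165.1 CPM in Bbs8+/+ and 160.1, 156.1, 173.3 and 140.1 CPM in Bbs8-/-. The genotypes overlapped, and the log2 fold change of -0.13 (SE 0.0858, edgeR FDR 0.571) did not pass. It ran from -0.18 without Bbs8-/- replicate 3 to -0.068 without Bbs8+/+ replicate 1. Egln1, the main HIF prolyl hydroxylase, was at 33.2 to 43.0 CPM and 19.7 to 35.5 CPM, with a log2 fold change of -0.43 (SE 0.174, unadjusted p = 0.0155, edgeR FDR 0.232) that was -0.27 without Bbs8-/- replicate 3. Egln3, a prolyl hydroxylase that HIF itself induces, was at 4.68 ± 1.82 and 4.81 ± 2.93 CPM, with 2 to 18 counts per Bbs8-/- library.

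The 5 hypoxia-induced targets gave no call. Bnip3, a mitophagy receptor, was at 9.91, 9.04, 13.5 and 6.28 CPM in Bbs8+/+ and 10.9, 8.35, 12.8 and 14.5 CPM in Bbs8-/-. The values of Bnip3 overlapped (log2 fold change 0.29, SE 0.302, edgeR FDR 0.768). Its log2 fold change was 0.12 without Bbs8+/+ replicate 4 and 0.49 without Bbs8+/+ replicate 3. Ndrg1, a stress-response gene, was at 79.6 ± 11.9 and 71.7 ± 9.37 CPM. Adm, which encodes the vasodilator peptide adrenomedullin, was at 13.2 ± 2.10 and 11.9 ± 2.88 CPM. The transcript ends of Ndrg1, Eno2, Car9, Adm, Eno1 and Bnip3 matched 34, 22, 8, 6, 4 and 2 other genes by the criterion used for Gapdh. Those of Gpi1, Ldhb, Pdha1 and Ankrd37 matched 1 each. The levels of all these genes too are those of uniquely aligned reads. Ankrd37 and Car9, a carbonic anhydrase known as a sensitive HIF target, stayed below the filter: Ankrd37 had 0 to 1 counts per Bbs8+/+ library and 0 to 4 per Bbs8-/- library, and Car9 had 0 to 1 in both. At this depth a fall in either gene could not have been seen.

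The promoter window of Bnip3 is shown as that of a target known to respond to HIF. It lies at chr7:138909457-138909756 on the minus strand of GRCm38.p6 and held 4 core stretches.
Bnip3 window 1: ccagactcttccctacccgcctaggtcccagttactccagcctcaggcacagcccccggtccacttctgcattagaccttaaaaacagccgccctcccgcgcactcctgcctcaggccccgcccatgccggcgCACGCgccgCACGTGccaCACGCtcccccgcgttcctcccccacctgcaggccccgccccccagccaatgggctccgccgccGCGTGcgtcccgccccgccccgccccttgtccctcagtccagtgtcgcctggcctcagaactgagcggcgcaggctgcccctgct

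Summed over the 6 genes of lower glycolysis, levels were 302 ± 27.0 CPM in Bbs8+/+ and 408 ± 10.2 CPM in Bbs8-/-, without overlap. The sum over all 16 genes of upper and lower glycolysis was 1428 ± 46.4 and 1571 ± 47.8 CPM, also without overlap. Without Pkm the other 15 summed to 1252 ± 34.5 and 1291 ± 53.0 CPM, and the genotypes overlapped. Pkm alone made up 12.3% ± 1.72 of the counts of the 16 genes in Bbs8+/+ and 17.9% ± 0.923 in Bbs8-/-, with ranges of 10.2% to 14.4% and 16.8% to 18.9%. The sum over the 4 oxygen sensors and HIF alpha subunits was 432 ± 6.79 and 370.2 ± 27.5 CPM, lower in Bbs8-/- without overlap. Sums over transport, upper glycolysis, pyruvate and lactate enzymes, and hypoxia targets overlapped, as did the sum over all 32 genes, at 2467 ± 55.0 and 2518 ± 30.0 CPM. These sums are descriptions without a test.

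Shares were taken among the isozymes of the 32 genes only, and every share overlapped between the genotypes. Hk1 made up 88.0% ± 3.27 of the summed counts of Hk1 and Hk2 in Bbs8+/+ and 90.3% ± 4.37 in Bbs8-/-. Hkdc1, a further hexokinase outside this sum, was at 11.0 ± 5.91 and 13.5 ± 2.22 CPM. Aldoa made up 90.8% ± 0.861 and 89.8% ± 1.56 of the counts of Aldoa and Aldoc. Eno1 made up 67.9% ± 7.72 and 67.8% ± 6.67 of the counts of Eno1 and Eno2, a sum that leaves out Eno3, the muscle enolase, at 41.1 ± 5.14 and 46.6 ± 5.46 CPM. Ldha made up 47.0% ± 3.70 and 47.3% ± 4.99 of the counts of Ldha and Ldhb. Ldhb shares 12% of the 100-base windows of its last 500 bases with another gene, and reads from there could not enter this share. The share of Pfkp among the counts of Pfkl, Pfkm and Pfkp, 41.5% ± 1.74 and 35.5% ± 3.51, came nearest to separating, with ranges of 39.3% to 43.2% and 31.4% to 39.9%.

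**Figure D4:**
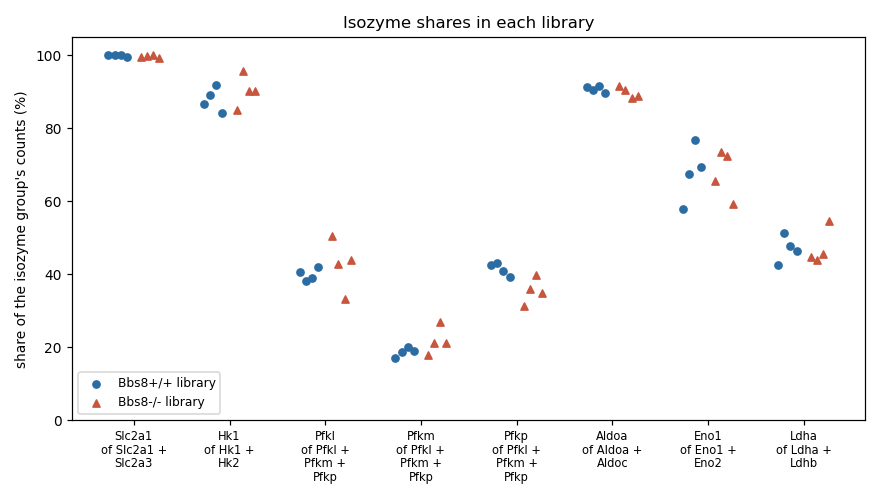
Share of one isozyme in the summed counts of the isozymes named on the axis (percent), for each Bbs8+/+ library (circles) and each Bbs8-/- library (triangles). All 8 shares overlap between the genotypes, and the share of Pfkp, at 35.5% against 41.5% on average, comes nearest to separating.

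Beyond the 32 genes, a list of 102 other genes of the same pathways was read from the same fit, and 91 were tested. Of these 3 rose, 0 fell and 88 did not pass FDR 0.05 in edgeR, beside the 1.10% that rose and 1.14% that fell of all tested genes. DESeq2 also called 3 higher and 0 lower. An unadjusted p under 0.05 in edgeR was found for 18 of the 91, 19.8% beside 13.0% of all tested genes. Their median log2 fold change was 0.02. No gene was called among other transporters of glucose, lactate and pyruvate (0 of 12), other glycolytic isozymes and regulators (0 of 13), the pyruvate dehydrogenase complex (0 of 8), glycogen and gluconeogenesis (0 of 13) or other HIF pathway regulators (0 of 13).

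Among 24 tested further targets of hypoxia, Ier3 and Vegfa rose. Ier3, an immediate early stress-response gene, was at 35.8, 30.7, 32.2 and 25.5 CPM in Bbs8+/+ and 56.4, 41.8, 55.9 and 61.2 CPM in Bbs8-/-. All knockout libraries lay above the controls, and the log2 fold change was 0.80 (SE 0.157, edgeR FDR 0.00018). Vegfa, the angiogenic growth factor that the RPE supplies to the choroid, was at 206.8, 187.5, 206.9 and 180.1 CPM in Bbs8+/+ and 244.4, 231.8, 251.3 and 250.7 CPM in Bbs8-/-. The knockout values of Vegfa were again all higher, by 0.33 on the log2 scale (SE 0.0760, edgeR FDR 0.00314).

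Of the 8 genes of the pentose phosphate pathway, the NADPH-yielding branch from glucose phosphate, Pgls rose. Pgls, the phosphogluconolactonase, was at 54.7, 59.8, 61.2 and 44.0 CPM in Bbs8+/+ and 67.9, 69.4, 83.9 and 82.2 CPM in Bbs8-/-. The log2 fold change of Pgls was 0.48 (SE 0.128, edgeR FDR 0.0175). The call was lost without Bbs8+/+ replicate 4 (FDR 0.150), Bbs8-/- replicate 3 (0.118) or Bbs8-/- replicate 4 (0.101).

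**Figure D5:**
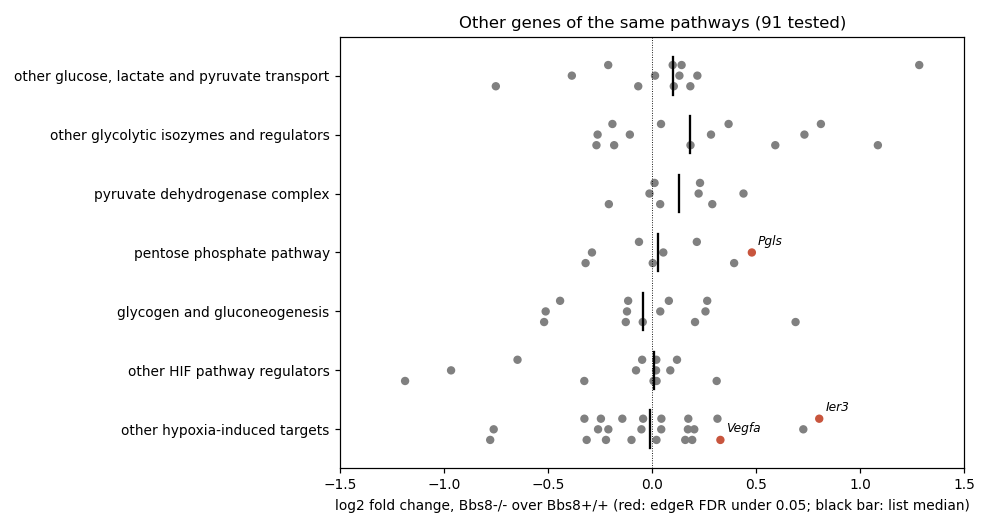
Log2 fold change of Bbs8-/- over Bbs8+/+ for the 91 tested other genes of the pathways, by list, with a black bar at each list's median and the genes past FDR 0.05 in edgeR in red. The 3 red points, Ier3 (0.80), Vegfa (0.33) and Pgls (0.48), all lie to the right of 0.

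Markers of other cell types moved with genotype in the same libraries, as did those of pigment cells, which take in the RPE itself. In a bulk sample, fewer cells of a type and less RNA per cell cannot be told apart. Of 16 tested lens markers (17 listed, none at 0 in every library) 11 rose, and their sum was 63.7 to 83.6 CPM in Bbs8+/+ and 452 to 494 CPM in Bbs8-/-. Macrophage markers, of which 2 of 8 rose, summed to 431 to 486 and 519 to 566 CPM. Both sums were higher without overlap in the genotype in which Pkm was higher, as was the sum of the Y-linked genes. Among the RPE markers Ttr and Rlbp1 were also higher without overlap, and the others overlapped. Of those, Rpe65, Lrat and Rrh had log2 fold changes below 0 (-0.13, -0.10 and -0.11). Rgr, Rdh5 and Best1 had values above 0 (0.049, 0.087 and 1.57). The part of these differences in the result for Pkm was not tested. Skeletal muscle, a tissue rich in glycolytic enzymes, had marker sums of 2426 to 2644 and 2636 to 2905 CPM, which overlapped, and 2 of its 16 markers rose.

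Endothelial markers, from cells rich in Epas1, summed to 975 to 1042 CPM in Bbs8+/+ and 973 to 1082 CPM in Bbs8-/-, and 1 of 10 rose. Sums that were lower in Bbs8-/- without overlap, as Epas1 was, were those of fibroblasts and matrix (45375 to 46392 and 38439 to 40458 CPM, 4 of 10 fell and 1 rose), pericytes and smooth muscle (1267 to 1317 and 1119 to 1196 CPM, 2 of 8 fell), pigment cells (14576 to 15230 and 12143 to 12653 CPM, 6 of 8 fell), photoreceptors (430.4 to 479 and 330.1 to 371 CPM, 2 of 12 fell) and myelinating glia (486 to 549 and 386 to 471 CPM, 2 of 7 fell). Surface keratins summed to 11.8 to 18.7 CPM and 0 to 0.607 CPM, 3 of 3 tested fell, and Krt14 was at 0 in every library. Erythroid markers overlapped, at 5159 to 5726 and 5635 to 6493 CPM, and 2 of 7 rose. Xist was lower in Bbs8-/- as well. The part of these differences in the result for Epas1 was not tested.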

How the data were processed

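A total of 8 QuantSeq libraries of P11 RPE eyecups were used, 4 per genotype. The deposited values are unnormalized counts per gene of reads with a single alignment. For these counts the authors cleaned the reads with BBDuk, mapped them to mm10 with STAR and assigned them to Ensembl genes with htseq-count. Whether reads were counted by strand is not given in the sources used here, so genes overlapping a counted gene on the opposite strand are uncertain: Slc2a1, Hk1, Hk2, Gpi1, Pfkm, Pfkp, Pfkfb3, Aldoa, Tpi1, Gapdh, Pdha1, Hif1a, Bnip3, Ankrd37, Car9, Ndrg1 and Adm. Reads outside annotated genes were 42.15% to 44.39% of uniquely aligned reads and reads with several alignments 25.5% to 26.6% of all aligned reads, and both stayed out of library sizes and tests. No filter on a gene's share of multi-mapped reads, as in the study's methods, could be made from these counts.

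Symbols came from GENCODE M21, which held 31011 of the 31053 identifiers. Aldoa had a second row with at most 1 count, which was not used. Genes reaching 1 CPM in 4 or more libraries entered the two-sided quasi-likelihood test of edgeR 4.0.16 under R 4.3.3, on TMM-scaled counts with a single factor, genotype. The Benjamini-Hochberg adjustment ran over every tested gene, with a threshold of FDR 0.05. The 95% intervals are 1.96 standard errors either side. No molecular identifiers were named, so the floor of 3 counts covers counting error only. The procedure was tested on simulated counts.

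The genes, lists and tests were chosen with earlier results of these data known. Genes named were Ttc8, every listed gene, and other pathway genes past FDR 0.05, with values in every library for genes called or without overlap among the 32 and for Slc2a1, Hk2, Pkm, Ldha, Hif1a and Bnip3. Hkdc1, Eno3, Eno1b, Xist, the RPE markers and Krt14 were named outside this rule, after their values were seen. The titles give both genotypes the same replicate numbers, and a fit blocked on them was an alternative, beside RLE factors, total counts only, filterByExpr, no filter, DESeq2 1.42.0, FDR 0.01 and leaving out each library. Similarity of transcript ends was searched over the last 500 bases. Promoter windows were read from the RefSeq table for GRCm38.p6.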

Additional observations from a re-analysis of the deposited data

Results flagged for a closer look

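In 3 groups of 4 libraries 1 library stood far from the others. Pfkp, the platelet phosphofructokinase, was at 51.7 CPM in Bbs8+/+ replicate 4 and at 65.8 to 66.8 CPM in the other Bbs8+/+ libraries. Pdk1, the pyruvate dehydrogenase kinase, was at 15.1 CPM in Bbs8+/+ replicate 1 and at 25.2 to 26.6 CPM in the others. Adm, the adrenomedullin gene, was at 16.3 CPM in Bbs8+/+ replicate 3 and at 12.1 to 12.2 CPM in the others. Such a gap arises by chance in about 1 in 20 groups, which is 3.3 of the 66 groups examined.

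Reads outside annotated genes, which enter no comparison, took 44.27% ± 0.124 (SD, n = 4) of uniquely aligned reads in the Bbs8-/- libraries. In the Bbs8+/+ libraries they took 42.64% ± 0.541.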

How the results depend on the processing

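The rise of Pkm passed the threshold in all 14 alternatives computed for single genes. Epas1 gave a count of 1 lower gene with RLE factors, total counts only, filterByExpr and no filter, and 0 with DESeq2, with the replicate block and at FDR 0.01. Without single libraries the count of lower genes ran from 0 to 1 and that of higher genes was 1 throughout, the loss falling in the fits without Bbs8+/+ replicates 2 and 4 and Bbs8-/- replicates 1 and 4. Over all tested genes the counts at FDR 0.01 were 93 higher and 81 lower, against 152 and 157. Without single libraries they were 113 to 175 higher and 102 to 156 lower, with 102 in the fit without Bbs8-/- replicate 1. The median log2 fold change of the 29 genes ran from -0.116 to -0.044 without single libraries, with -0.044 in the fit without Bbs8+/+ replicate 2. Other pathway genes gave 2 to 4 higher and 0 lower without single libraries, and 2 higher at FDR 0.01. The log2 fold change of Ttc8 was -2.44 to -1.70.

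Of the 29 genes, 20 kept direction and side of the threshold in every alternative run for them (14 each, and 13 for Pgk1, which filterByExpr removed), 8 changed sign in at least 1, Epas1 lost its call, and 0 gained one. Ldha gave -0.00046 with total counts only and -0.0017 with the replicate block. Without single libraries the signs turned for Ldha (-0.10 to 0.086), Hk1 (-0.094 to 0.027), Gpi1 (-0.010 to 0.17), Pfkl (-0.012 to 0.14), Pfkfb3 (-0.30 to 0.094), Pgam1 (-0.50 to 0.047), Ldhb (-0.089 to 0.037) and Egln3 (-0.29 to 0.39), none of which passed the test. The cause was not tested.

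With the replicate number as a block the counts were 134 higher and 129 lower over all genes, 1 and 0 over the 29 genes and 3 and 0 over the other pathway genes. The median of the 29 genes was then -0.10, Ttc8 gave -1.97, Pkm 0.68 and Epas1 -0.28. Same-numbered libraries did not deviate together (correlations of 0.020, 0.0034, -0.050 and -0.056 over 6626 genes with a mean of at least 20 CPM), so the numbers were not taken as pairs. Depth limits the genes near the floor: Pgk1, Pgam1 and Egln3 had standard errors of 0.495, 0.479 and 0.468 on the log2 scale, against a median of 0.135 over the 29 genes.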
